A study of Mus musculus with 8 samples.

Results

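Immune cells read antibody and damage signals through receptors whose tails, or whose partner adaptors, carry an immunoreceptor tyrosine-based activation motif (ITAM). The 9 genes described here code for a working chain of that kind. *Fcgr1* and *Fcgr3* encode activating receptors for the Fc part of IgG. *Fcer1g* and *Tyrobp* encode ITAM adaptors, *Fcer1g* the gamma chain of Fc receptors and *Tyrobp* the partner of TREM2 and related receptors. *Lyn* and *Fgr* encode Src-family kinases, *Syk* the kinase that docks on the phosphorylated ITAM, *Btk* a TEC-family kinase, and *Plcg2* the phospholipase C that these kinases switch on to raise calcium. In liver the chain is best known from Kupffer cells, the resident macrophages, from recruited monocytes and from B cells. The 9 genes were found by exact gene symbol among 16650 genes in the table, and they were selected on their role with the normalized values and fold changes of this contrast already known. Their differences between genotypes are therefore given as a description. Where a cut-off on p is applied to them below, the outcome is not read as a test.

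Liver RNA came from 8 mice, 4 *2afl/fl* and 4 *L2aKO*. All had been on a NASH diet, rich in fat, with fructose-sweetened water for 2 weeks, and livers were taken at zeitgeber time 4. Both genotypes carry the floxed *Mfsd2a* alleles. In *L2aKO* the Cre is driven by the albumin promoter and so acts in hepatocytes, while these 9 genes are best known from leukocytes. Which liver cells their reads came from was not tested. The mice were male, as the methods state for the study's animals unless noted otherwise, started the diet at 8 weeks of age and were 10 weeks old at collection. Each library is 1 whole perfused liver, so a change in the number of cells of a type and a change in RNA per cell cannot be told apart.

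Depth was 27.5M to 30.2M reads in the *2afl/fl* libraries and 28.3M to 37.2M in the *L2aKO* libraries. *Alb*, the hepatocyte albumin gene, averaged 1155000 in *2afl/fl* and 1350000 in *L2aKO*, and *Clec4f*, a Kupffer cell marker, 2406 and 2447, all as normalized values. *Mfsd2a*, the targeted gene, was not lower under the knockout label. Its normalized values were 467, 1569, 299.6 and 513 in *2afl/fl* and 915, 721, 1422 and 1974 in *L2aKO* (log2 fold change 1.01, SE 0.59, exact permutation test, two-sided, p = 0.171 over 70 assignments, the smallest possible being 0.0286). The *L2aKO* animals are therefore called the livers labelled *L2aKO*, and every direction below rests on that label. The table holds 1 value per gene, so reads from exons outside the deleted part would count too, and their share was not tested.

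The ITAM itself is shown because it sets the 2 adaptors apart from the other 7 members. A protein search for tyrosine, any 2 residues, leucine or isoleucine, then the same again after 6 to 12 residues, matched *Fcer1g* and *Tyrobp* alone among the members, against 1400 of 21829 mouse proteins (6.41%), so a match is not rare. The coding DNA below is from GENCODE M21 on GRCm38 (mm10), with the codons of both tyrosines and both leucines in capitals. The *Fcer1g* stretch lies at chr1:171229889-171230072 on the minus strand and the *Tyrobp* stretch at chr7:30415670-30417382 on the plus strand, each spread over 2 exons. In both the spacer between the repeats was 7 residues.
Fcer1g: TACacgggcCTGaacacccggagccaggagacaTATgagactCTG
Tyrobp: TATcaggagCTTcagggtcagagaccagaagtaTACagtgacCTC
Aligned over the whole proteins, the adaptors were only 30.2% identical.

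Promoter windows were searched for GAGGAAG, the core bound by the myeloid factor PU.1 (*Spi1*), on both strands. Windows of 300 bases around the start sites in RefSeq (GRCm38.p6) were matched for 7 of the 9 members, not for *Lyn* and *Tyrobp*. The core was present in *Fcgr1*, *Fcgr3*, *Btk* and *Fgr*, and these letters were not in the windows of *Syk*, *Plcg2* and *Fcer1g*. That is 4 of 7 members (57.1%), against 40 of 122 other genes of the pathway (32.8%) and 2054 of 12988 genes of the table (15.8%). The motif was picked after sequences had been seen, and a match is not evidence of binding. The windows of both receptors are shown, since the receptors open the chain, with the letters in capitals and as the reverse complement CTTCCTC (*Fcgr1* chr3:96294005-96294039 and *Fcgr3* chr1:171059390-171059424, both minus strand).
Fcgr1: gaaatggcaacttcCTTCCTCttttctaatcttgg
Fcgr3: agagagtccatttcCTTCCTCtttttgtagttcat

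A gene is called here when its unadjusted limma p is under 0.05 and its fold at least 1.25, the criterion used throughout. These are the cut-offs the study set for its own DESeq2 analysis, applied to another test. Of the 9 members only *Syk* was called, higher, and nothing is read from that count, since the members were selected with this contrast known. Over all genes 1.32% were called higher and 0.781% lower by that rule, 2.1% in all. By limma 0 of 16650 genes had an adjusted p under 0.05 (Benjamini-Hochberg), while 581 (3.49%) had an unadjusted p under 0.05. With quantile normalization the calls over all genes were 167 higher and 169 lower, in place of 219 and 130. In 8 of 9 members the log2 fold change was positive, with a median of 0.17, against 50.1% positive and a median of 0.00 over all genes. In no member did the genotypes separate completely, which they did in 2.25% of all genes, with all 4 livers labelled *L2aKO* above the controls in 1.12% and below them in 1.13%.

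**Figure D1:**
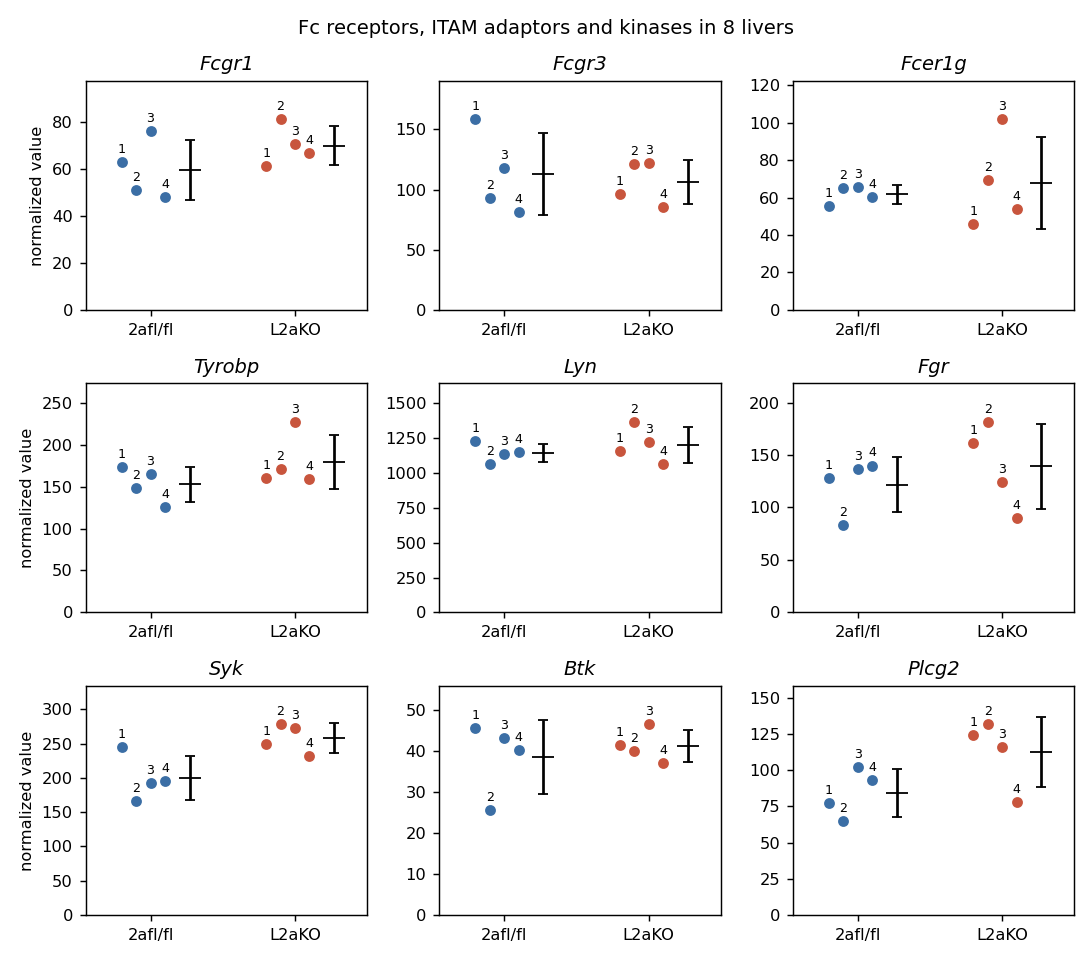
Normalized value (y axis, from 0) of each member in each liver, with the replicate number above each point and the mean ± SD of 4 livers in black. *Syk* and *Plcg2* have 3 of 4 livers labelled *L2aKO* above the highest *2afl/fl* liver, and the genotypes overlap in every panel.

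The receptors come first in the chain. *Fcgr1*, the high-affinity IgG receptor (chr3:96282909-96293969), had normalized values of 62.8, 51.1, 76.0 and 47.9 in *2afl/fl* and 61.0, 81.1, 70.4 and 66.9 in the livers labelled *L2aKO* (log2 fold change 0.24, SE 0.18). A single liver labelled *L2aKO*, replicate 2, exceeded every control. *Fcgr3*, the low-affinity receptor of macrophages and NK cells (chr1:171051169-171059403), read 158, 92.6, 118 and 81.5 in *2afl/fl* and 95.9, 121, 122 and 85.5 in *L2aKO* (log2 fold change -0.06, SE 0.20). It was the only member with a negative value, its highest liver was a control, and the sign turned when single livers were left out (-0.19 to 0.12). Of the *Fcgr3* transcript 12.8% of the 50-base windows also occur in *Fcgr2b*, the inhibitory IgG receptor, so some of their reads may not be separable.

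*Fcer1g*, the shared gamma chain of Fc receptors (chr1:171229572-171234349), had values of 55.3, 64.9, 65.8 and 60.4 in *2afl/fl*, a tight group, and 45.8, 69.6, 102 and 53.9 in *L2aKO*. The lowest and the highest liver both carried the knockout label (log2 fold change 0.07, SE 0.22), and the sign turned with a liver left out (-0.14 to 0.24). *Tyrobp*, also called DAP12, the partner of TREM2 and related receptors (chr7:30413782-30417579), had values of 173, 148, 165 and 126 in *2afl/fl* and 160.2, 171, 227 and 159 in *L2aKO* (0.22, SE 0.14). *L2aKO* replicate 3 was the only liver above all controls, and without it the log2 fold change was 0.11.

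*Lyn* is the Src-family kinase that phosphorylates ITAMs in B and myeloid cells and also starts inhibitory signaling (chr4:3678121-3791612). It was the most abundant member and had the smallest SE, at 1229, 1068, 1139.6 and 1148 in *2afl/fl* and 1155, 1369, 1219.7 and 1067 in *L2aKO* (log2 fold change 0.07, SE 0.08). The spread among livers of the same label covered that difference. Its locus overlaps 6330407A03Rik, 14.8% of its 50-base windows also occur in *Gm11787*, and the strand used in counting is not given in the sources used here. *Fgr*, a Src-family kinase of neutrophils and macrophages (chr4:132974095-133001882), had values of 128, 83.0, 136 and 140.0 in *2afl/fl* and 161, 182, 125 and 90.1 in *L2aKO*, a wide scatter with 2 of 4 knockout-labelled livers above every control (log2 fold change 0.17, SE 0.23). Without control replicate 2, its lowest liver, the difference was 0.00.

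*Syk* (chr13:52583437-52648792) had normalized values of 245, 166, 193 and 196 in *2afl/fl* and 249.6, 278, 273 and 232 in the livers labelled *L2aKO*. The lowest knockout-labelled liver still lay above 3 of the 4 controls, with control replicate 1 the exception, and the group averages were 199.8 ± 32.7 and 258 ± 21.4 (SD over 4 livers). This is a fold of 1.30, or 0.38 on the log2 scale with an SE of 0.12. With a liver left out the value ran from 0.30, without the lowest control, *2afl/fl* replicate 2, where the fold was under the limit, to 0.48. Counting error at these 156 to 340 reads per liver was about 6.55%.

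*Plcg2* (chr8:117498275-117635142) had a difference of similar size with more scatter. Its values were 77.6, 64.9, 102 and 93.0 in *2afl/fl* and 124, 132, 116 and 78.0 in *L2aKO* (84.4 ± 16.5 and 113 ± 23.9, SD over 4 livers). In *L2aKO* 3 livers exceeded every control, while replicate 4 sat among the controls. The difference was 0.40 on the log2 scale (SE 0.19), and ran from 0.29 to 0.57 with a liver left out. *Btk*, whose kinase activates PLCG2 in B cells and myeloid cells (chrX:134542341-134583140), had few reads, 24 to 49 per liver. Its values were 45.7, 25.5, 43.1 and 40.3 in *2afl/fl* and 41.4, 40.1, 46.6 and 37.2 in *L2aKO* (0.12, SE 0.21), and leaving out livers moved it between -0.06, without the low control replicate 2, and 0.21.

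**Figure D2:**
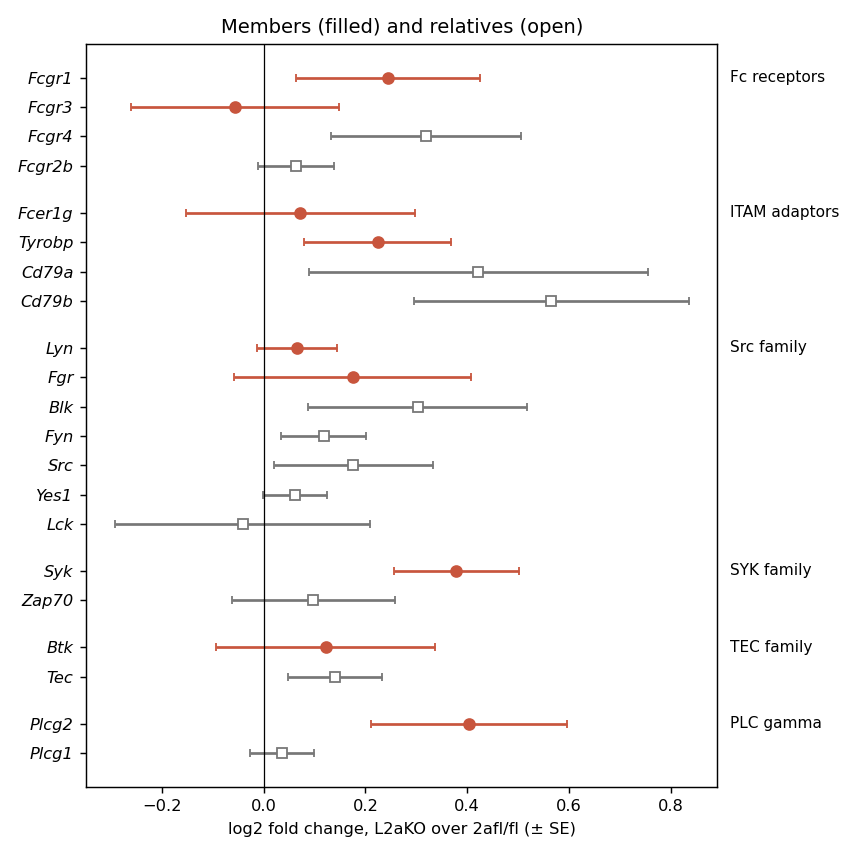
Log2 fold change (x axis) of livers labelled *L2aKO* over *2afl/fl* with its SE, by role, for members (filled) and relatives from lists (open). *Syk* at 0.38 and *Plcg2* at 0.40 have the highest values of the 9 members, and *Zap70* (0.10) and *Plcg1* (0.04), their relatives, lie nearer 0.

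The closest relatives are given for reference, and no difference between relatives was tested. *Zap70*, the T cell kinase that is 57.4% identical to SYK, averaged 108 in *2afl/fl* and 118 in *L2aKO* (log2 fold change 0.10, SE 0.16). *Plcg1*, 52.0% identical to PLCG2 and expressed widely, averaged 1844 and 1892 (0.04, SE 0.06). For *Tec*, 58.0% identical to BTK, the log2 fold change was 0.14 (SE 0.09). None of these 3 met the criterion, nor did any other relative measured. *Yes1* (0.06, SE 0.06), *Fyn* (0.12, SE 0.08) and *Src* (0.18, SE 0.16) are Src-family kinases of many tissues. For *Blk*, of B cells, the log2 fold change was 0.30 (SE 0.21), and for *Lck*, of T cells, it was -0.04 (SE 0.25).

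Of 11 other Fc receptors measured, 8 were positive and 0 were called. *Fcgr4*, an activating IgG receptor that also needs the gamma chain, ranged from 51.1 to 72.6 in *2afl/fl* and from 63.2 to 94.2 in *L2aKO* (log2 fold change 0.32, SE 0.19). *Fcgrt*, the neonatal Fc receptor that recycles IgG and albumin, was far more abundant and level, at 3534 and 3554 (0.01, SE 0.06). *Trim21*, the cytosolic antibody receptor, averaged 212 and 240.3 (0.19, SE 0.11).

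**Figure D3:**
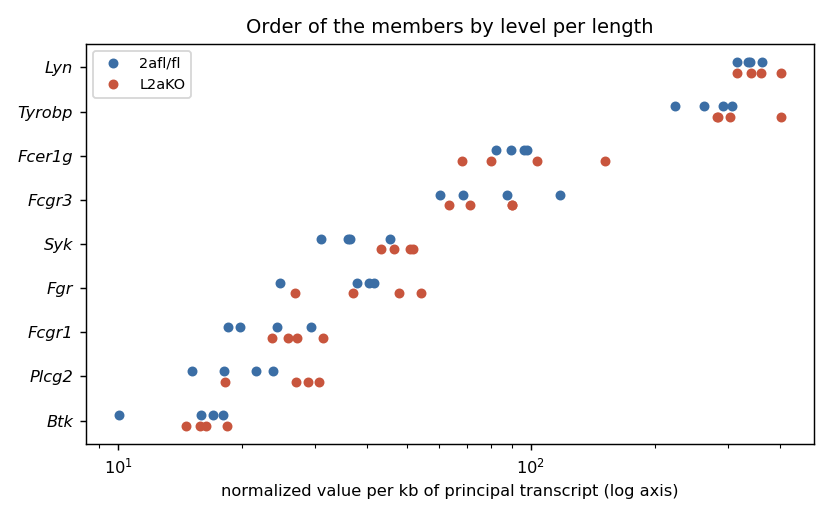
Normalized value per kb of transcript (log x axis) for each member in each liver, *2afl/fl* in blue and *L2aKO* in red, ordered by the mean over 8 livers. *Lyn* (347) and *Tyrobp* (295) lead, *Btk* (15.7) is lowest, and the ranges of most neighbours overlap.

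The next comparison is between genes, so levels are per kb of the principal transcript. *Lyn* averaged 347, *Tyrobp* 295, *Fcer1g* 96.0, *Fcgr3* 81.2, *Syk* 42.7, *Fgr* 38.8, *Fcgr1* 25.0, *Plcg2* 22.9 and *Btk* 15.7 normalized value per kb over 8 livers. Only the steps from *Tyrobp* to *Fcer1g* and from *Fcgr3* to *Syk* had ranges that did not overlap. *Syk* exceeded *Fgr* in 4 of 8 livers, and *Fcgr1* exceeded *Plcg2* in 6 of 8. The inhibitory receptor *Fcgr2b*, at 344 per kb, stood well above both activating receptors, and *Plcg1*, at 366, above *Plcg2*. These are whole-liver levels and do not show that the genes share cells.

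Livers differed as wholes in these genes. *2afl/fl* replicate 2 held the lowest value for *Syk*, *Plcg2*, *Btk* and *Fgr*, and averaged -0.33 on the log2 scale against the 8-liver mean over the members. *2afl/fl* replicate 4 held the lowest value for *Tyrobp*, *Fcgr1* and *Fcgr3* (-0.15). At the other end *L2aKO* replicate 2 held the highest value for *Syk*, *Plcg2*, *Lyn*, *Fgr* and *Fcgr1* (0.25) and *L2aKO* replicate 3 for *Btk*, *Fcer1g* and *Tyrobp* (0.26). *L2aKO* replicate 4 was above the median in 1 member only.

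Cell type markers are given beside these values. The 5 macrophage markers summed to 6015 to 8173 in *2afl/fl* and 7264 to 8649 in *L2aKO*, with 5 of 5 positive and 0 called. The 4 leukocyte markers summed to 989.9 to 1308 and 1090 to 1544, with 0 called. The 9 Kupffer cell markers were all positive, and 0 were called. The 7 recruited macrophage markers, 7 of 7 positive, summed to 764 to 958 and 822 to 1011, with 0 called and *Chil3* at 0 in at least 1 liver. The 5 endothelial markers, 4 of 5 positive and 0 called, summed to 7520 to 8898 and 8990 to 9772. Those sums did not overlap between the labels, though 0 of the 5 genes separated the labels alone. How often such sums separate was not tested. The 7 B cell markers, 6 positive and 1 negative, summed to 69.1 to 124 and 115 to 155. Of these *Ms4a1*, which encodes CD20, was called higher (log2 fold change 0.88, SE 0.38) but lost the call in 6 of 8 fits that left out a liver. The negative one, *Ebf1*, had the largest change of the list in either direction (means 4.684 and 2.999, log2 fold change -1.14, SE 0.701). *Ebf1* was not called, had few reads and was at 0 in at least 1 liver. The red cell markers *Hba-a1*, *Hba-a2* and *Hbb-bs*, 3 of 5 on their list, were called higher and did not overlap (log2 fold changes 0.59, 0.47 and 0.53). Over all genes 1.32% were called higher, and 1.12% had all 4 livers labelled *L2aKO* above the controls. *Hbb-bt* (0.63) overlapped and was not called, and *Alas2* was negative (3806 and 3524, -0.10). The list, with *Alas2* its most abundant gene, summed to 3777 to 5417 and 4357 to 5547. Of 6 dendritic cell markers 4 were positive and 2 negative, and the list summed to 294.8 to 374 and 306 to 361. Of these *Batf3* (means 6.625 and 21.63) and *Ccr7* (4.55 and 9.33, overlapping) were called higher (1.81 and 1.15) on few reads. The negative ones were *Zbtb46* (241.8 and 220.5, -0.12) and *Siglech* (-0.10). Of 6 neutrophil markers 4 were positive, 2 negative and 0 called. Among them *S100a8* and *S100a9* were scarce, at 6.77 and 6.85 for *S100a8* and 2.60 and 4.73 for *S100a9*. *Cxcr2* (501.5 and 498.3) and *Csf3r* (78.7 and 87.6) were not. In *S100a9* and *Csf3r* all 4 livers labelled *L2aKO* were above the controls, as in 1.12% of all genes. In some other lists the signs and the sums did not match. Of 8 T and NK cell markers 3 were positive and 5 negative, with a median log2 fold change of -0.09. Their mean sums were 147.1 in *2afl/fl* and 155.1 in *L2aKO*. Both mast cell and basophil markers measured were negative, near 0 reads, with mean sums of 4.63 and 5.62. The 3 plasma cell markers, 2 positive and 1 negative, had a median of 0.15 but mean sums of 139.9 in *2afl/fl* and 101.5 in *L2aKO*. All 5 hepatocyte markers were positive. In these lists 0 genes were called. The part of cell content in the values of *Syk* and *Plcg2* was not tested. Relative to the mean log2 value of the 5 macrophage markers, *Syk* differed by 0.16 between labels, *Plcg2* by 0.19 and *Fcgr3* by -0.27, and the groups overlapped in all 3 ratios.

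Beyond the members, 150 of 169 genes listed for the same pathway were measured, and the others were not analysed here. Of these 3 were called higher and 0 lower, against 1.32% and 0.781% of all genes, and 119 were positive and 31 negative (median log2 fold change 0.13). The lists were written with earlier results of these data known and are not an independent sample of genes.

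**Figure D4:**
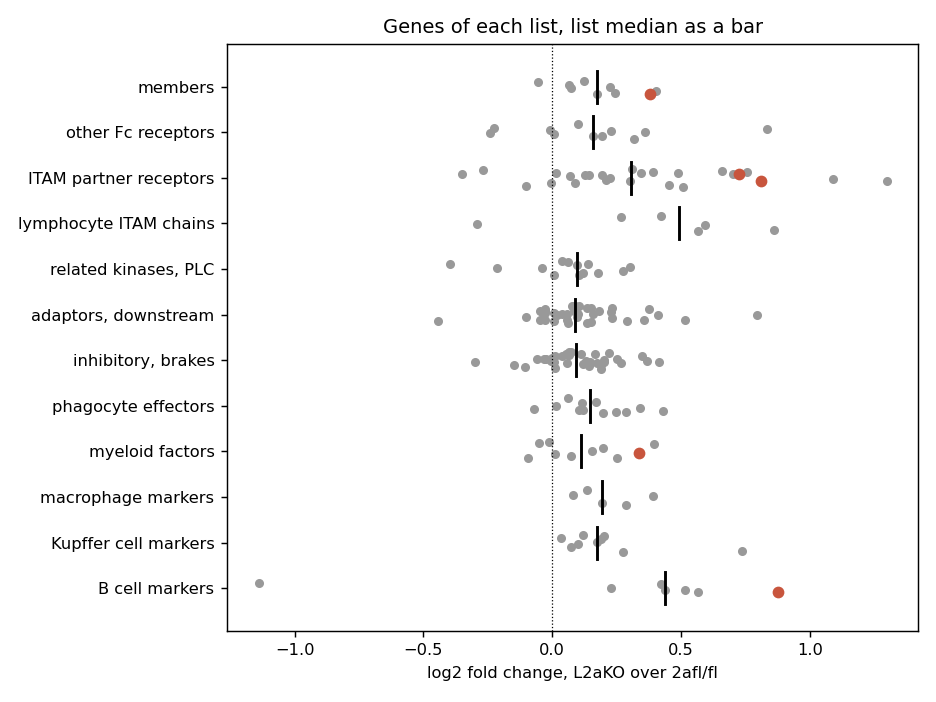
Log2 fold change (x axis) of livers labelled *L2aKO* over *2afl/fl* for each measured gene of the members, 8 pathway lists and the macrophage, Kupffer cell and B cell markers (other lists are not drawn), with genes past the criterion in red and the list median as a bar. *Syk*, *Clec4n*, *Cd300lb*, *Ikzf1* and *Ms4a1* are the red points, and the medians of these 12 lists lie to the right of 0. Among lists not drawn, the T and NK cell markers (-0.09) and the mast cell and basophil markers (-0.39) had negative medians.

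Among 26 measured receptors that signal through these adaptors or a half-ITAM of their own, 22 were positive and 2 were called. *Clec4n*, the fungal-sugar receptor dectin-2 that works through the Fc receptor gamma chain, averaged 17.6 ± 6.98 in *2afl/fl* and 30.9 ± 8.52 in *L2aKO* (log2 fold change 0.81, SE 0.33). It met the criterion in only 3 of 8 fits with a liver left out. *Cd300lb*, a DAP12-linked receptor, averaged 18.6 ± 5.35 and 30.9 ± 5.46 (0.73, SE 0.26) and met it in 7 of 8. *Trem2*, the DAP12 partner of lipid-associated macrophages, averaged 10.9 and 16.5 (0.51, SE 0.36). Few reads lie behind all 3 genes. The 4 most abundant receptors of the list, *Cd300ld* (0.21), *Clec9a* (0.01), *Clec7a* (dectin-1, 0.07) and *Clec1b* (0.22), had smaller log2 fold changes.

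Of 37 adaptors and enzymes downstream of SYK, 0 were called, 28 were positive, and the median was 0.09. *Itpr1* and *Itpr2*, calcium channels of the endoplasmic reticulum, averaged 4835 against 4864 and 3119 against 3017. *Pik3ap1*, an adaptor that brings in PI3K, averaged 2394 and 2615 (0.14, SE 0.09). *Stim1*, the calcium store sensor, averaged 1402 and 1502, with all 4 livers labelled *L2aKO* above the controls. Its log2 fold change of 0.10 (SE 0.06) was under the fold limit and it missed the cut-off on p too. Of 12 phagocyte effectors 0 were called, with 11 positive. *Cybb*, the catalytic oxidase subunit, averaged 554 and 626 (0.17, SE 0.11), and *Itgb2*, the leukocyte integrin chain, 174 and 189.9 (0.12, SE 0.15). *Ncf1*, a subunit of the phagocyte oxidase, separated the genotypes (98.8 and 121, log2 fold change 0.29, SE 0.13) and also stayed under the fold limit.

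Of 34 inhibitory receptors and negative regulators, the brakes on the chain, 0 were called, 27 were positive and 7 negative, with a median log2 fold change of 0.09. The highest values were those of *Siglece* (0.41, SE 0.23), *Sla* (0.37, SE 0.22) and *Cd22* (0.35, SE 0.22), named after their values were seen. *Ceacam1*, *Ptpn11* and *Csk*, the last the kinase that shuts off Src-family kinases, had log2 fold changes of -0.03, 0.01 and -0.06. *Fcgr2b* averaged 1191 ± 95.9 and 1245 ± 87.3 (0.06, SE 0.07). For *Ptpn6*, the phosphatase SHP-1, the log2 fold change was 0.11 (SE 0.10), and for *Inpp5d*, the lipid phosphatase SHIP1, 0.17 (SE 0.11). *Inppl1*, which encodes SHIP2, was the only one with an unadjusted limma p under 0.05, and at -0.15 (SE 0.06) it did not reach the fold limit.

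Of 10 myeloid transcription factors 1 was called. *Ikzf1*, a regulator of lymphoid and myeloid development, averaged 107 ± 4.67 and 137 ± 19.2 (0.34, SE 0.13) with no overlap between the genotypes, and lost the call in 2 of 8 fits with a liver left out, with quantile normalization and with library weights. *Cebpb* (0.25, SE 0.13) was not called. *Spi1*, which encodes PU.1, averaged 74.5 in both genotypes (0.01, SE 0.16). *Cd79a* and *Cd79b*, the ITAM chains of the B cell receptor, had log2 fold changes of 0.42 (SE 0.33) and 0.57 (SE 0.27), and neither met the criterion.

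To see how the members vary apart from genotype, the genotype mean was taken away and the 8 livers were compared gene by gene. These livers share libraries, depth and cell content, so the correlations are descriptions. Over the 36 pairs Pearson's r had a median of 0.47 and ran from -0.05 to 0.92, with 34 positive and 16 over 0.5. *Syk* went with *Lyn* (r 0.80, Spearman's rho 0.95, and r 0.92 without the 2 livers farthest from the median of *Syk*). *Plcg2* went with *Fgr* (r 0.92, rho 0.83), which dropped to 0.57 without the 2 farthest livers. *Syk* and *Plcg2* shared r 0.42.

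**Figure D5:**
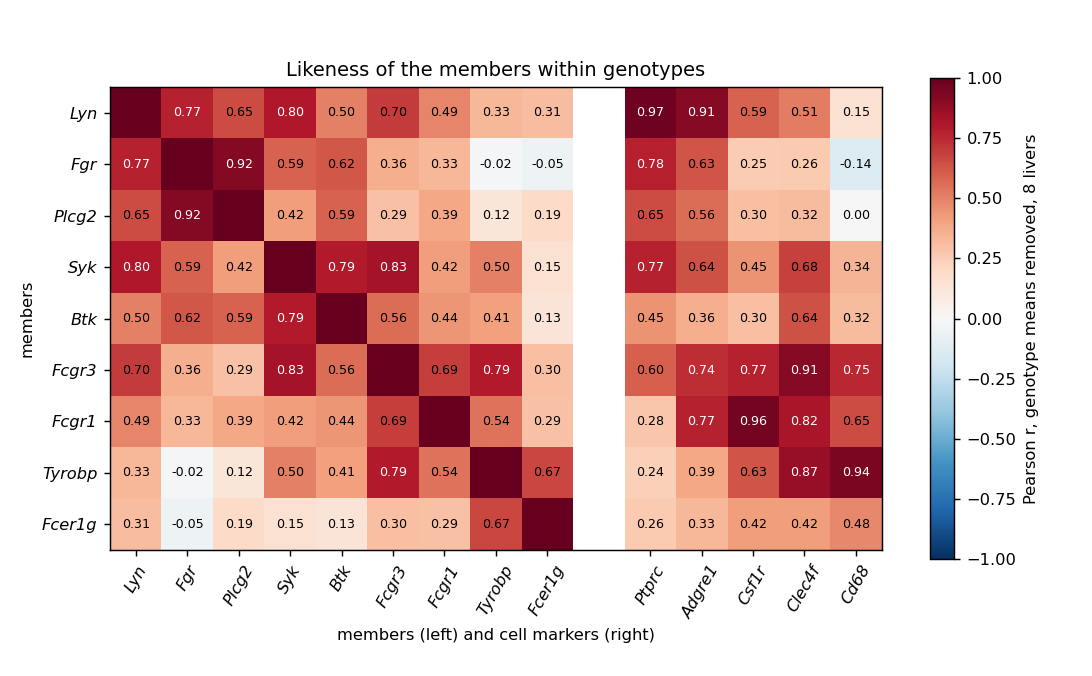
Pearson's r over 8 livers after removal of the genotype means, between members (left) and with 5 cell markers (right), red for positive and blue for negative. *Lyn* with *Ptprc* reaches 0.97 and *Fcgr1* with *Csf1r* 0.96, while *Fgr* with *Fcer1g* is -0.05.

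Of 5 cell markers, *Ptprc* gave the highest r for *Syk* (0.77), *Plcg2* (0.65), *Lyn* and *Fgr* (0.78), and no difference between correlations was tested. Without the 2 farthest livers, r with *Ptprc* dropped to -0.23 for *Plcg2* and 0.36 for *Fgr*, and was 0.92 for *Syk*. *Lyn* went with *Ptprc*, the pan-leukocyte gene CD45 (r 0.97), *Fcgr1* with *Csf1r*, the macrophage growth factor receptor (0.96), *Tyrobp* with *Cd68*, a macrophage lysosome gene (0.94), and *Fcgr3* with *Clec4f* (0.91). *Lyn* also reached 0.91 with *Adgre1* and *Tyrobp* 0.87 with *Clec4f*. The first 4 pairs stayed at 0.87 or more without the 2 farthest livers. A search of 11827 genes, all averaging 50 or more, ranked each gene by the mean of its separate r values with the members. The highest means were those of *Cybb* (0.71), the phagocyte oxidase subunit, *Dok2*, *Epb41l3* (both 0.71), *Fndc3b* and *Kifc3* (both 0.70). Such a mean is not comparable with the single r values that follow. For *Syk* alone the highest r values were those of *Tedc2* (0.97), *Pex10* (0.96) and *Afdn* (0.95). For *Plcg2* alone they were those of *Egfr*, *Polr1a* and *Rcor1* (0.99 each). With so many genes and so few livers, high values arise easily.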

How the data were processed

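RNA-Seq of 8 livers was analysed. Per the paper's methods and the submitters' processing notes, the authors mapped reads to mm10 with STAR 2.7.8a in Partek Flow version 10 and used DESeq2. The deposited values are a signal, reads divided by a DESeq2 size factor per library, in part fractional (88.6 to 89.2% of values under 100 reads lay within 0.02 of whole reads, all 72 member values among them), so count tests were not used. The gene annotation is not given in the sources used here. Depth, worked back from the value of 1 read, was 27.5M to 37.2M reads. Each mouse gave 1 library, and none were copies (28 pairs compared by chi-square, 23.9 to 120.2 per degree of freedom).

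All 16650 genes (mean of at least 1) were log2 transformed with a pseudocount of 1 and fitted by genotype alone in limma 3.58.1 (R 4.3.3), with a trended, robust eBayes and two-sided tests. Fold changes are on that scale, which understates those of low genes. The script was tested on simulated data. Members and lists were chosen with earlier results of these data known. Named are all members, in each list the genes called and, where informative, some of the 4 highest, relatives fixed by name, and the genes most like the members. *Stim1*, *Ncf1*, *Batf3*, *Ccr7*, *Zbtb46*, *Siglech*, *Cxcr2*, *Csf3r*, *Ebf1*, *Alas2* and the hemoglobin genes were named after their values were seen. Some genes under the naming rule are not reported here. Alternatives changed the pseudocount, filter, scaling, eBayes settings, library weights, replicate block and fold limit, and left out each liver.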

Additional observations from a re-analysis of the deposited data

Results flagged for a closer look

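No member had a liver far from the other 3 of its genotype. Of 128 groups of 4 livers checked, over 64 genes, 6 had such a liver, and chance gives about 1 in 20 groups. *Mfsd2a* was 1569 in *2afl/fl* replicate 2, against 299.6 to 513 in the other controls. *Inppl1* was 1639 in *2afl/fl* replicate 3 (1423 to 1458 in the others) and 1461 in *L2aKO* replicate 3 (1304 to 1322 in the others). *Yes1*, a Src-family kinase, was 1527 in *L2aKO* replicate 4 (1401 to 1415). *Ms4a1* was 22.9 in *L2aKO* replicate 1 (18.6 to 19.0). *S100a9* was 1.14 in *2afl/fl* replicate 3 (2.88 to 3.19), which is about 1 read.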

How the results depend on the processing

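Each member was refitted under each alternative, which gave 153 log2 fold changes. All 153 lay within 1 SD among replicates of the member's main value. With single livers left out the signs of *Btk*, *Fcer1g* and *Fcgr3* changed. Without *2afl/fl* replicate 2 *Syk* was not called, and without *2afl/fl* replicate 3, without *L2aKO* replicate 4 or with library weights *Plcg2* was called too. Members called higher numbered 1, 2 with library weights, and 0 to 2 with a liver left out, and 0 were called lower throughout. Nothing is read from the members' calls, since these genes were selected with this contrast known. Pathway genes called higher numbered 3, but 7 with eBayes without trend and not robust, and 1 to 8 with a liver left out, and those called lower 0, 1 with no fold limit and 0 to 1 with a liver left out. Over all genes those called lower numbered 130, 80 with a mean of at least 10, 253 with no fold limit and 84 to 191 with a liver left out, and those called higher 193 to 262. *Clec4n* lost its call without any of 5 livers (0.61 to 0.76) and *Cd300lb* without *2afl/fl* replicate 3 (0.56). Deviations from the genotype means gave r of -0.21 to 0.13 for same-numbered livers over 14212 genes. For differently numbered livers r ran from -0.20 to 0.22. With 4 livers per label these values cannot exclude a pairing, and the main fit used none. With the replicate number as a block 210 genes were called higher and 149 lower, with 1 member and 3 pathway genes higher and 0 lower of each.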
